A study of Homo sapiens with 12 samples.

Results

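Histone cluster genes are the protein-coding genes whose symbols begin with HIST1, HIST2, HIST3 or HIST4 in GENCODE release 29, and they were found by symbol and matched by Ensembl identifier to a table of read counts. The rule gave 71 of the 58302 genes in the table: 6 genes of linker histone H1, 17 of H2A, 18 of H2B, 15 of H3 and 15 of H4. Another 19 histone cluster genes are annotated as pseudogenes and were not members. RNA was measured in 12 libraries, 3 in each of 4 groups. NCI-H226, a human mesothelioma cell line that lacks NF2 and is labelled sensitive to GNE-7883, was incubated with this TEAD inhibitor or with the vehicle DMSO. NCI-H226_CL3, the resistant line, was derived from it by growth in a TEAD inhibitor raised from 0.25 to 3 µM, and it was likewise incubated with GNE-7883 or DMSO. The resistant groups are 1 line, and the labels state neither the dose nor the duration of the last incubation. TEAD factors bind DNA and, with YAP or TAZ, switch on genes that the Hippo pathway keeps low. In sensitive cells GNE-7883 went with more histone cluster RNA in every histone class, 87.1 ± 1.89 CPM (the usual read count scaled to library size) over all members against 38.1 ± 2.18 CPM in DMSO (SD, n = 3 each). In resistant cells the sums were 46.2 ± 0.866 CPM in GNE-7883 and 38.7 ± 2.40 CPM in DMSO.

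Histones package DNA: H2A, H2B, H3 and H4 form the core of the nucleosome, and H1 binds the DNA between cores. The cluster genes are the main source of histones in S phase, when new DNA must be wrapped. Their usual mRNA ends after a short stem-loop and carries no poly(A) tail; the stem-loop binding protein SLBP holds this loop while the 3′ end is cut and later controls how long the mRNA lasts. Some of the genes also give a longer transcript that reads past the stem-loop and is polyadenylated, a form known from differentiating and non-dividing cells. The labels name the TruSeq RNA kit v2 for the libraries and do not describe its selection step; from general knowledge, this kit selects RNA by its poly(A) tail and does not mark strand. If used so, levels here are those of histone RNA that such a library captures, and not of the stem-loop mRNA that dividing cells make. As bulk RNA, they also do not tell fewer cells with a transcript from less transcript per cell.

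The stem-loop was present in annotated transcripts of 32 of the 71 members (45.07%), against 67 of 58676 genes in the annotation (0.1142%). In 35 members the model ends at the stop codon, so a loop lying after it could not be seen. The 45.07% thus does not say that the other members lack the loop. The exact letters found in HIST1H2AC were in 17 members (23.94%), against 20 genes in all (0.03409%). The stem-loops of 5 members on which the results turn are given here to show how alike they are, from GENCODE release 29 on GRCh38 and on the gene's own strand, with the stem and loop in capitals and 5 bases on each side.
HIST1H2AC, chr6:26124664-26124689, plus strand: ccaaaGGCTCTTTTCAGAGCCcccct
HIST2H2BE, chr1:149886183-149886208, minus strand: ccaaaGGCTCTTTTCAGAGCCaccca
HIST1H2BD, chr6:26158582-26158607, plus strand: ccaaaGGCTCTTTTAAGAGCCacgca
HIST1H3E, chr6:26225591-26225616, plus strand: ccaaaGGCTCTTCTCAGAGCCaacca
HIST1H4H, chr6:26285126-26285151, minus strand: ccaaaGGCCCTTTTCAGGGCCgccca
The 5 loops differ in a few letters only. Their annotated transcripts differ from a plain stem-loop mRNA in the sequence that follows: a transcript went on for up to 1128 bases after the loop in HIST1H2AC, 1729 in HIST2H2BE, 1862 in HIST1H3E and 1655 in HIST1H4H, but for 39 in HIST1H2BD. HIST1H2BD also has a coding transcript with 384 bases after the stop codon and no loop. The 1128 bases of HIST1H2AC belong to a transcript annotated for nonsense-mediated decay, not as coding. Its coding transcript with the loop goes on for 1114. The 1655 bases of HIST1H4H belong to a transcript of 2163 bases, also annotated for nonsense-mediated decay. A coding transcript of 1034 bases, the length of the authors' gene model, goes on for 630 after the loop.

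Histone cluster RNA was scarce. The 71 members together took 24637 counts, or 0.00515% of all counts. 11 members had no count in any library, 24 had 1 to 9 counts over the 12 libraries and 36 had 10 or more. 18 members passed the filter on low counts that precedes the test: HIST1H1C for H1, 5 of the H2A genes, 6 of the H2B genes, 3 of the H3 genes and 3 of the H4 genes. These 18 held 97.2% of the members' counts. 15 of them stood above the cutoff of the filter in all 12 libraries. HIST1H2AI was above it only in the 3 sensitive GNE-7883 libraries. HIST1H2AE was above it in those 3 and in 1 library each of sensitive DMSO and resistant DMSO. Both thus passed only through sensitive GNE-7883, where they are high, and their calls against that group are no support. HIST1H4E was above the cutoff in 5 libraries of 3 groups. Total counts per library ran from 31878934 to 46962645, so a count of 0 allows a level of up to 0.0627 CPM in the deepest library and 0.0920 CPM in the shallowest. This limit covers counting error only.

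Which members had counts went with what the annotation holds after the stop codon. Of the 35 members whose model ends at the stop codon, 27 had a count and only HIST1H1C and HIST1H2BK passed the filter; the other 33 shared 180 counts over 12 libraries. Of the 21 members with the poly(A) signal AATAAA in the last 40 bases of a transcript, 11 passed, and these 21 held 61.3% of the members' counts. The remaining 15 members, with bases after the stop codon but no such signal at the end, held 14.5%, and 5 of them passed. The longest annotated transcript had a median of 1265.5 bases in the 18 genes that passed and 411 bases in the 53 that did not. Genes without unique sequence were mostly uncounted too. In 7 members, among them HIST2H3A, HIST2H3C, HIST1H4K and HIST2H2AA3, no stretch of 50 bases, the read length, occurred in that gene's transcripts alone, and 6 of these 7 had no count. Among genes that passed, HIST1H2BK (25.9% of its 50-base stretches unique) and HIST1H2AI (37.7%) are uncertain for this reason. HIST1H2BD and HIST1H2BN are uncertain because other genes overlap them and no source states that the counting used strand.

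**Figure D1:**
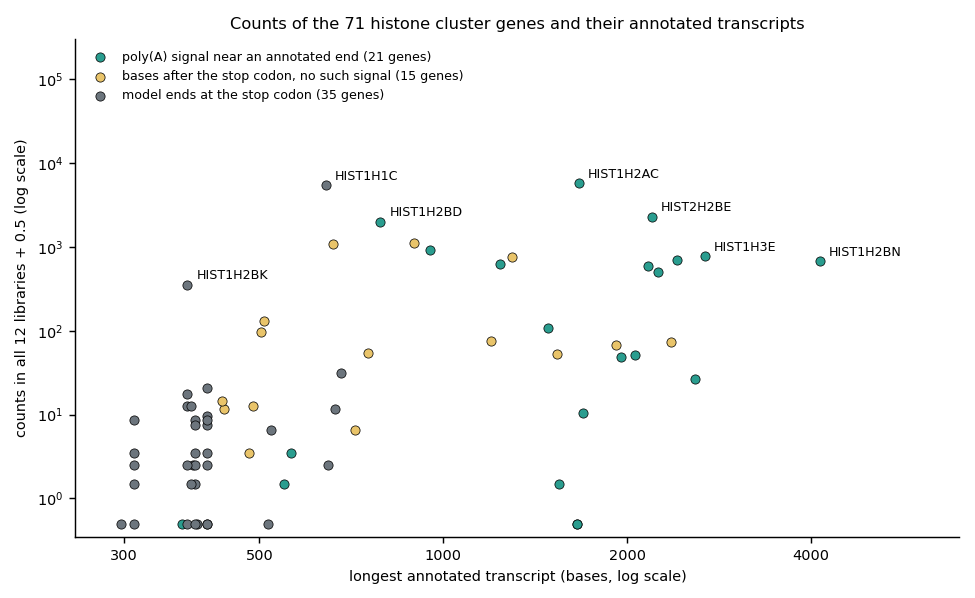
Counts over all 12 libraries, with 0.5 added, against the length of the longest annotated transcript for the 71 histone cluster genes, both on log scales, each point 1 gene coloured by what its annotation holds after the stop codon. Genes whose model ends at the stop codon lie at the lower left, apart from HIST1H1C with 5445 counts and HIST1H2BK with 353.

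Per unit of length HIST1H1C, which encodes a linker histone, was highest, at a mean of 17.9 RPKM (reads per kilobase of gene model, scaled to library size) over the 12 libraries. It held 98.1% of all H1 counts. HIST1H2AC followed at 7.44 RPKM and held 75.3% of the H2A counts, so that the H1 and H2A sums mostly follow these genes. H2B was spread more evenly: HIST1H2BD had 4.95 RPKM, HIST1H2BC 2.80 RPKM and HIST2H2BE 2.21 RPKM, and HIST2H2BE held 29.7% of the H2B counts. For H3 the highest level was that of HIST1H3H (1.08 RPKM), and for H4 that of HIST1H4I (1.23 RPKM). The gene models implied by the authors' counts and RPKM were 642 bases long for HIST1H1C, which is its coding sequence alone, and 1654 bases for HIST1H2AC, and these lengths enter the levels.

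In sensitive cells, histone cluster RNA of each class was higher with GNE-7883. H2A summed to 28.8 ± 0.910 CPM in GNE-7883 and 11.2 ± 0.654 CPM in DMSO (SD, n = 3 each), a ratio of 2.57. H2B summed to 27.5 ± 1.87 CPM in GNE-7883 and 11.5 ± 0.394 CPM in DMSO, a ratio of 2.39. The smaller classes behaved alike: H3 summed to 8.16 ± 0.899 CPM in GNE-7883 and 3.05 ± 0.149 CPM in DMSO, a ratio of 2.68, and H4 to 5.30 ± 0.695 CPM in GNE-7883 and 2.19 ± 0.273 CPM in DMSO, a ratio of 2.42. H1 had the smallest ratio, at 17.4 ± 1.29 CPM in GNE-7883 and 10.2 ± 1.33 CPM in DMSO, or 1.71-fold. All members together came to 86.8, 85.5 and 89.2 CPM in GNE-7883 and to 37.1, 40.6 and 36.6 CPM in DMSO. In every class the 3 GNE-7883 libraries lay above the 3 DMSO libraries. The class sums were not tested, and 58.1% of all genes tested were called in this comparison (29.8% higher and 28.4% lower).

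**Figure D2:**
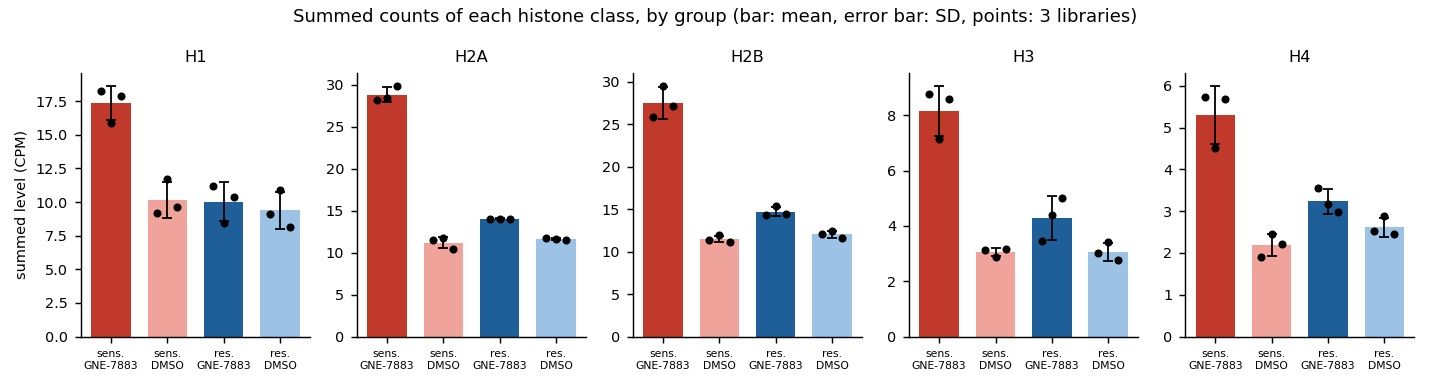
Summed level of each histone class in CPM for the 4 groups, with bars for means, error bars for SD and points for the 3 libraries of a group. In sensitive cells the GNE-7883 points lie above the DMSO points in each panel, and in resistant cells they overlap for H1 and lie a little above for the other classes.

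Gene by gene, 14 of the 18 members tested rose with GNE-7883 in sensitive cells and none fell (edgeR's quasi-likelihood test, Benjamini-Hochberg adjusted p under 0.05 over 18035 genes), and 4 did not pass the test. At an unadjusted p under 0.05, 15 were higher and 0 lower, and DESeq2 also called 0 lower. With 58.1% of all genes called, including the 29.8% that were higher, a single call is common in this comparison. The median log2 fold change was 1.02 over the 18 members and 0.02 over all genes tested. Of the 15 members above the cutoff of the filter in all libraries, 13 rose. By class, 1 of 1 H1 gene, 3 of 5 H2A genes, 5 of 6 H2B genes, 3 of 3 H3 genes and 2 of 3 H4 genes rose.

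HIST1H2AC, an H2A gene at chr6:26124145-26139116 on the plus strand and the member with the most counts, had 22.5, 22.6 and 24.3 CPM in sensitive GNE-7883 libraries and 7.47, 7.30 and 7.06 CPM in sensitive DMSO libraries. The groups lay far apart, and the log2 fold change was 1.67 ± 0.073 (edgeR, adjusted p = 3.18e-11), where the error, as for each fold change, is the standard error. HIST1H2BC, the H2B gene next to it, had 4.79, 4.98 and 4.67 CPM in GNE-7883 and 1.65, 1.43 and 1.59 CPM in DMSO. Its log2 fold change was 1.63 ± 0.137 (adjusted p = 5.17e-08, edgeR), close to that of its neighbour. HIST1H2BD, a further H2B gene at chr6:26158146-26171349 on the plus strand, had 9.29, 9.88 and 9.76 CPM in GNE-7883 and 3.03, 3.81 and 2.90 CPM in DMSO, a log2 fold change of 1.57 ± 0.108 (adjusted p = 5.22e-09, edgeR). HIST2H2BE, an H2B gene at chr1:149884459-149886652 on the minus strand, had 6.98, 9.18 and 7.43 CPM in GNE-7883 and 3.12, 2.81 and 3.01 CPM in DMSO, a log2 fold change of 1.40 ± 0.131 (adjusted p = 1.91e-07, edgeR). GNE-7883 replicate 2 was the highest here, and all 3 GNE-7883 values lay above the DMSO range.

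The largest fold changes were those of 3 H3 and H4 genes with few counts. HIST1H3E, at chr6:26224199-26227473 on the plus strand, had 3.87, 3.02 and 3.13 CPM in GNE-7883 and 0.781, 0.785 and 1.01 CPM in DMSO, a log2 fold change of 1.96 ± 0.235 (adjusted p = 2.79e-06, edgeR). HIST1H3H had 2.89, 2.42 and 3.58 CPM in GNE-7883 and 0.735, 0.856 and 0.821 CPM in DMSO, a log2 fold change of 1.89 ± 0.227. HIST1H4H, at chr6:26277609-26285638 on the minus strand, encodes the same protein as most H4 genes and had 2.25, 2.45 and 2.60 CPM in GNE-7883 and 0.666, 0.690 and 0.931 CPM in DMSO, a log2 fold change of 1.68 ± 0.178. None of these 3 genes had overlapping groups. HIST1H4I, the H4 gene highest per length, rose less, at 2.64, 1.81 and 2.47 CPM in GNE-7883 and 0.942, 1.40 and 1.04 CPM in DMSO (log2 fold change 1.03 ± 0.183).

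HIST1H1C, at chr6:26055787-26056428 on the minus strand, had 18.2, 15.8 and 17.8 CPM in sensitive GNE-7883 libraries and 9.10, 11.5 and 9.28 CPM in sensitive DMSO libraries, a log2 fold change of 0.79 ± 0.121 (adjusted p = 3.75e-05, edgeR). The highest DMSO value was that of replicate 2, a library that stands apart from its group. The other 5 H1 genes, none of which passed the filter, had 12 counts in all in sensitive GNE-7883 and 26 in sensitive DMSO. Their summed counts per library were 3 to 5 in GNE-7883 and 4 to 13 in DMSO, which overlap, so the H1 sum shows HIST1H1C and little else.

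The 4 members tested that did not pass were HIST1H2AE (log2 fold change 0.92, adjusted p = 0.0540), HIST3H2A (0.36, adjusted p = 0.0839), HIST1H4E (1.01, adjusted p = 0.111) and HIST1H2BJ (-0.38, adjusted p = 0.0900), all by edgeR. HIST1H2BJ was the only member tested with a negative value. It had 1.17, 1.63 and 1.17 CPM in GNE-7883 and 1.31, 1.97 and 1.89 CPM in DMSO, so the groups overlapped. It was called lower without sensitive DMSO replicate 1 or sensitive GNE-7883 replicate 2 (adjusted p down to 0.0158, edgeR). The other 3 were called higher with some libraries left out: HIST3H2A without sensitive DMSO replicate 2, HIST1H4E without sensitive GNE-7883 replicate 2, and HIST1H2AE without replicate 1 of either sensitive group. HIST3H2A and HIST1H2AE were also called higher with offsets for GC content and length, with or without the replicate block, which makes 16 members higher. With these offsets 62.9% of all genes were called, and 62.7% with the block as well. HIST1H3G, an H3 gene called at 0.47 ± 0.157 (adjusted p = 0.0171, edgeR), had the largest adjusted p of the 14: it was not called without sensitive DMSO replicate 2, with no filter on low counts or by DESeq2.

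**Figure D3:**
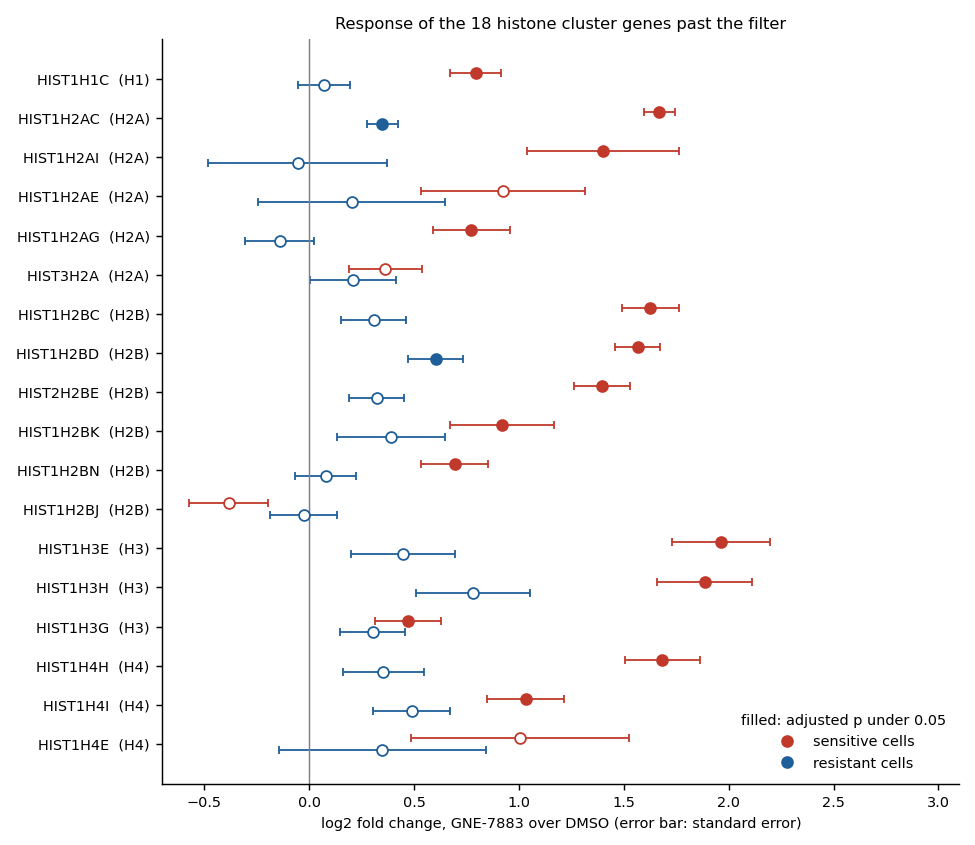
Log2 fold change of GNE-7883 over DMSO with its standard error for the 18 members tested, in sensitive and in resistant cells, grouped by class, with filled points for an adjusted p under 0.05. The sensitive values reach 1.96 for HIST1H3E and the resistant values 0.78 for HIST1H3H, which was not called.

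In resistant cells the same incubation went with small differences. 2 of the 18 members tested rose and none fell (edgeR), against 9.22% of all genes called (5.25% higher and 3.97% lower). At an unadjusted p under 0.05, 5 were higher and 0 lower, and DESeq2 called 2 higher and 0 lower. HIST1H2AC had 10.6, 11.1 and 10.5 CPM in resistant GNE-7883 and 8.80, 8.55 and 7.82 CPM in resistant DMSO, a log2 fold change of 0.35 ± 0.074 (adjusted p = 0.0075, edgeR). HIST1H2BD had 2.99, 2.64 and 2.62 CPM in GNE-7883 and 1.67, 1.93 and 1.84 CPM in DMSO, a log2 fold change of 0.60 ± 0.131 (adjusted p = 0.00813, edgeR). Neither gene had overlapping groups. HIST1H3H had the largest value, 0.78 ± 0.272, with 0.689, 1.41 and 1.04 CPM in GNE-7883 and 0.504, 0.715 and 0.583 CPM in DMSO, and it did not pass (adjusted p = 0.0905, edgeR), though it did without resistant GNE-7883 replicate 1, with no filter on low counts, and with GC and length offsets, alone or with the replicate block. The median over the 18 members was 0.31, and 15 values were positive, against a median of -0.00 over all genes.

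As sums, H2A came to 14.0 ± 0.0578 CPM in resistant GNE-7883 and 11.6 ± 0.133 CPM in resistant DMSO, a ratio of 1.21. H2B came to 14.7 ± 0.543 CPM in GNE-7883 and 12.03 ± 0.400 CPM in DMSO, a ratio of 1.22. H3 came to 4.28 ± 0.781 CPM in GNE-7883 and 3.06 ± 0.334 CPM in DMSO, a ratio of 1.40. These classes and H4, with a ratio of 1.23, did not overlap between treatments, though H3 and H4 only just. For H3 the lowest GNE-7883 sum was 3.45 CPM and the highest DMSO sum 3.42 CPM, and for H4 these were 2.98 and 2.88 CPM. The class sums were not tested, and no H3 or H4 gene was called here. H1 overlapped, at 10.0 ± 1.45 CPM in GNE-7883 and 9.39 ± 1.38 CPM in DMSO.

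The difference between these responses was tested directly, as the response of resistant minus that of sensitive cells. It was negative, so smaller in resistant cells, for 10 of the 18 members and positive for none, while 35.7% of all genes were called in this comparison (19% positive and 16.7% negative). At an unadjusted p under 0.05, 0 were positive and 11 negative, and DESeq2 called 0 positive and 9 negative. The 10 were HIST1H3E (-1.52), HIST1H4H (-1.33), HIST1H2AC (-1.32), HIST1H2BC (-1.32), HIST1H3H (-1.11), HIST2H2BE (-1.07), HIST1H2BD (-0.96), HIST1H2AG (-0.91), HIST1H1C (-0.72) and HIST1H2BN (-0.61). HIST1H2AC had the smallest adjusted p, 1.16e-07 by edgeR with a standard error of 0.104. The call of HIST1H2BN (adjusted p = 0.0374, edgeR) held in 5 of 18 alternatives: it was lost with the replicate block, with GC and length offsets, with both, with no filter, by DESeq2 and with any of 8 single libraries left out. That of HIST1H3H (adjusted p = 0.0267, edgeR) was lost with any of 6 left out. Resistant GNE-7883 replicates 1 and 3 were among them for both genes. The members not called ranged from -1.45 for HIST1H2AI to 0.36 for HIST1H2BJ.

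**Figure D4:**
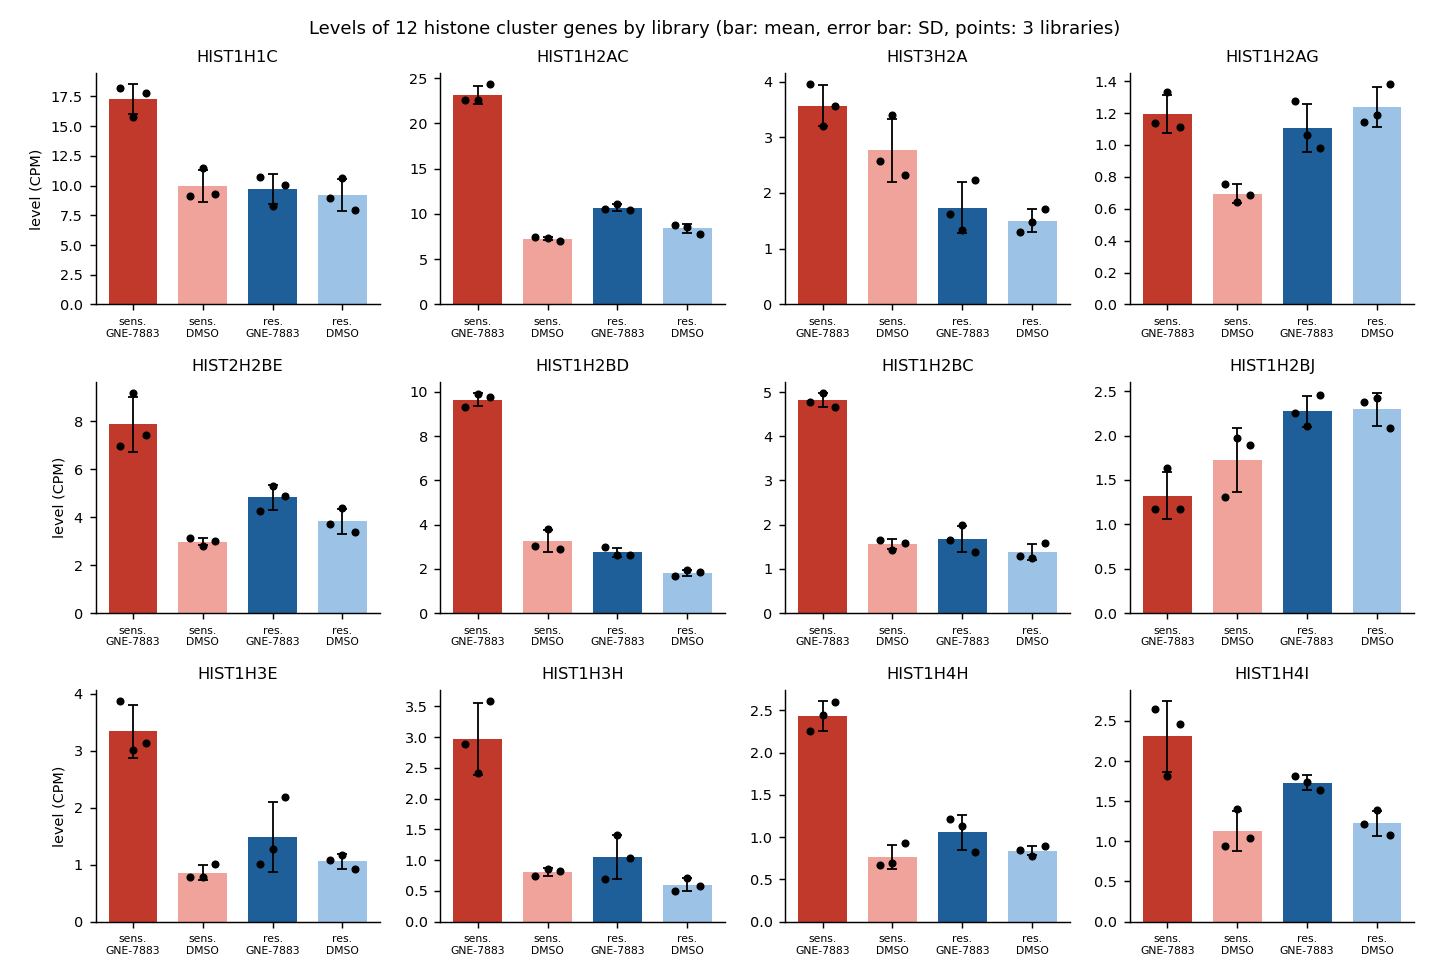
Levels in CPM of 12 of the members described, with bars for means, error bars for SD and points for the 3 libraries of a group. HIST1H2AC, HIST1H2BD, HIST1H2BC and the H3 and H4 genes stand highest in sensitive GNE-7883, whereas HIST1H2BJ is highest in the resistant groups.

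Without inhibitor the sums of the lines overlapped for all members together and for each class but H4. H4 came to 2.62 ± 0.229 CPM in resistant DMSO and 2.19 ± 0.273 CPM in sensitive DMSO, a ratio of 1.19, with every resistant library above the sensitive ones, the lowest only just. All members came to 38.4, 41.2 and 36.5 CPM in resistant DMSO and 37.1, 40.6 and 36.6 CPM in sensitive DMSO. Single genes differed in both directions: 5 of the 18 members were higher in resistant cells and 2 were lower, against 48.7% of all genes called (24.2% higher and 24.4% lower). HIST1H2BD had 1.67, 1.93 and 1.84 CPM in resistant DMSO and 3.03, 3.81 and 2.90 CPM in sensitive DMSO, a log2 fold change of -0.84 ± 0.128 (adjusted p = 5.07e-05, edgeR). HIST3H2A, the H2A gene of the small HIST3 cluster, had 1.31, 1.47 and 1.72 CPM in resistant DMSO and 2.57, 3.4 and 2.33 CPM in sensitive DMSO, a log2 fold change of -0.90 ± 0.192 (adjusted p = 0.00105, edgeR). Both were lower in each resistant library. HIST1H2AG had 1.15, 1.19 and 1.38 CPM in resistant DMSO and 0.758, 0.642 and 0.684 CPM in sensitive DMSO, a log2 fold change of 0.82 ± 0.180 (adjusted p = 0.00137, edgeR). HIST1H2BN was higher by 0.58 ± 0.158 (adjusted p = 0.00659, edgeR), at 1.65, 1.36 and 1.41 CPM in resistant DMSO and 1.08, 1.05 and 0.821 CPM in sensitive DMSO. HIST1H2BJ (0.43), HIST2H2BE (0.37) and HIST1H2AC (0.21) were also called higher, with adjusted p of 0.046, 0.0392 and 0.0349 by edgeR, and each of these 3 calls was lost without resistant DMSO replicate 1 or 2. With either of those libraries or resistant GNE-7883 replicate 3 left out, 2 members were called higher, and 3 without sensitive DMSO replicate 3.

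In GNE-7883 the lines stood apart. 12 of the 18 members were lower in resistant cells and 1 was higher, against 61.9% of all genes called (30.7% higher and 31.1% lower); this comparison shares its libraries with the others. Of the 15 members above the cutoff of the filter in all libraries, 10 were lower and 1 higher. HIST1H2BD differed most, at 2.75 ± 0.207 CPM in resistant GNE-7883 and 9.64 ± 0.309 CPM in sensitive GNE-7883, a log2 fold change of -1.80 ± 0.110 (adjusted p = 7.23e-10, edgeR). HIST1H3H (-1.52), HIST1H2BC (-1.51), HIST1H3E (-1.20) and HIST1H4H (-1.19) were also lower. HIST1H2BJ was the member that was higher, at 2.26, 2.11 and 2.46 CPM in resistant GNE-7883 and 1.17, 1.63 and 1.17 CPM in sensitive GNE-7883, a log2 fold change of 0.79 ± 0.179 (adjusted p = 0.00121, edgeR). Resistant GNE-7883 cells had 46.2 ± 0.866 CPM over all members, against 87.1 ± 1.89 CPM in sensitive GNE-7883 cells. The 12 include HIST1H4I as well as HIST1H2AE and HIST1H2AI, which passed the filter only through sensitive GNE-7883. The call of HIST1H2AE (adjusted p = 0.039, edgeR) held in 7 of 18 alternatives. That of HIST1H4I (adjusted p = 0.0452, edgeR), whose groups overlapped, held in 5 of 18. Both were lost without any 1 of the 3 resistant GNE-7883 libraries, with no filter on low counts, with the replicate block and by DESeq2.

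The members were also summed by their annotated 3′ end, a grouping made after their counts had been seen and therefore only described. The 21 genes with a poly(A) signal near an annotated end summed to 54.2, 56.2 and 57.6 CPM in sensitive GNE-7883 and 20.8, 21.2 and 20.7 CPM in sensitive DMSO. In resistant cells they summed to 28.1, 29.7 and 29.2 CPM in GNE-7883 and 23.5, 24.4 and 21.9 CPM in DMSO. The 15 genes with bases after the stop codon but no such signal at the end summed to 12.8, 12.4 and 12.4 CPM in sensitive GNE-7883 and 6.11, 7.04 and 5.72 CPM in sensitive DMSO. Both sets stood higher in each sensitive GNE-7883 library. The 33 genes whose model ends at the stop codon, leaving out HIST1H1C and HIST1H2BK, had 34 counts in sensitive GNE-7883 and 46 in sensitive DMSO, and 51 in resistant GNE-7883 and 49 in resistant DMSO. Per library these were 5 to 18 counts in sensitive GNE-7883 and 14 to 17 in sensitive DMSO, so no difference was detectable at this depth. With HIST1H1C and HIST1H2BK the 35 genes summed to 18.6 ± 1.53 CPM in sensitive GNE-7883 and 10.9 ± 1.30 CPM in sensitive DMSO. Genes that failed the filter despite long annotated transcripts gave unlike counts: HIST1H2BF had 9, 16 and 12 counts in sensitive GNE-7883 and 4, 5 and 4 in sensitive DMSO, and HIST3H2BB had 9, 11 and 9 counts in sensitive GNE-7883 and 5, 3 and 0 in sensitive DMSO. HIST1H2BG, by contrast, had 1, 7 and 0 counts in sensitive GNE-7883 and 3, 2 and 3 in sensitive DMSO, and HIST1H2BH had 4, 1 and 6 in sensitive GNE-7883 and 5, 1 and 2 in sensitive DMSO.

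**Figure D5:**
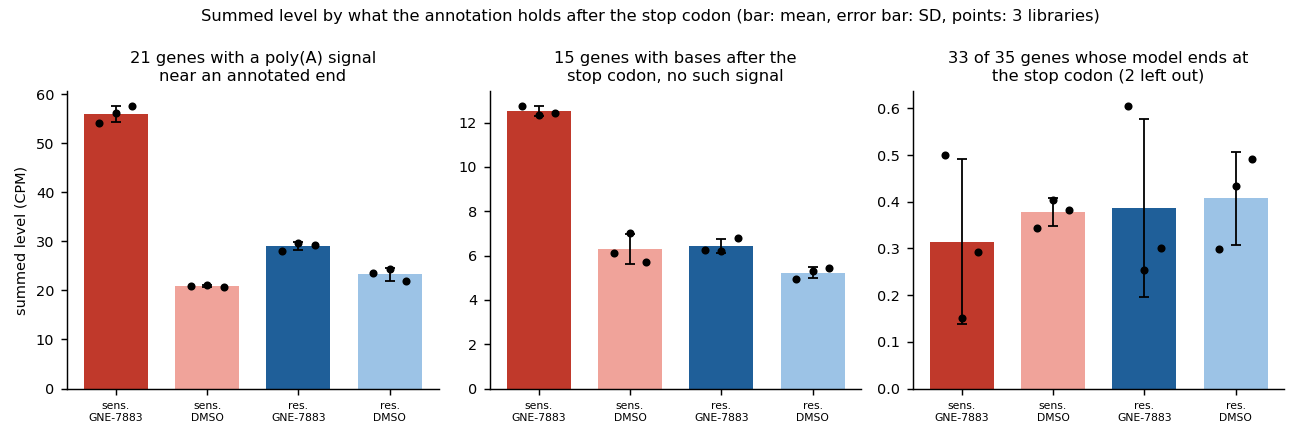
Summed level in CPM of members grouped by what the annotation holds after the stop codon, for the 4 groups, with bars for means, error bars for SD and points for the 3 libraries of a group, each panel on its own scale. The sums of the first 2 sets are highest in sensitive GNE-7883, and the third, which leaves out HIST1H1C and HIST1H2BK, reaches at most 0.606 CPM with overlapping groups.

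Many H2A and H2B genes lie head to head, so that a stretch of DNA between them serves as promoter for both. The annotation held 11 such pairs among members, with 218 to 330 bases between the starts, and in 2 of them both genes passed the filter. HIST1H2AC and HIST1H2BC, 218 bases apart, rose by similar amounts in sensitive cells (1.67 and 1.63 on the log2 scale), as given above. HIST1H2AG and HIST1H2BJ, 291 bases apart, gave unlike values, though the difference between the genes was not tested. HIST1H2AG had 1.14, 1.33 and 1.11 CPM in sensitive GNE-7883 and 0.758, 0.642 and 0.684 CPM in sensitive DMSO (log2 fold change 0.77 ± 0.185, adjusted p = 0.00203, edgeR), while HIST1H2BJ was not called at -0.38. Counts within a pair could be very unequal: HIST2H2BE had 2285 counts over the 12 libraries and HIST2H2AC, its neighbour 322 bases away with a model of coding sequence only, had 2. The windows of 250 bases before and 50 bases after the start of HIST1H2AC and HIST1H2BJ, which take in most or all of the DNA between each pair, are shown because they belong to these pairs. They come from RefSeq on GRCh38.p14, each on the strand of the named gene, with ATTTGCAT (the octamer bound by the factor OCT1), CCAAT and TATAAA in capitals in either orientation, adjoining matches running together.
HIST1H2AC, chr6:26123922-26124221, plus strand: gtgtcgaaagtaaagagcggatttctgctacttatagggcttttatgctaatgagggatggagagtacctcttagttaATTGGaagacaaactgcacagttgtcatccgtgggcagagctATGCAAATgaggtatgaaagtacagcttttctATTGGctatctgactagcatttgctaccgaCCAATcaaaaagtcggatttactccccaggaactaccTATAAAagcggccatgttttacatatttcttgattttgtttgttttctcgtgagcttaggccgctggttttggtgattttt
HIST1H2BJ, chr6:27132746-27133045, minus strand: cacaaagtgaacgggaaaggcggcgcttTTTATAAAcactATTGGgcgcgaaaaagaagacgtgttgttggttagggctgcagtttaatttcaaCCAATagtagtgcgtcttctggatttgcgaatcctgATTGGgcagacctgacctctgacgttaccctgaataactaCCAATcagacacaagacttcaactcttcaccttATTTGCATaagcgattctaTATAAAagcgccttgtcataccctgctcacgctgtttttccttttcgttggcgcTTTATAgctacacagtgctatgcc
Both windows held the octamer, 130 bases before the start of HIST1H2AC and 47 bases before that of HIST1H2BJ. Windows were found for 61 of the 71 members. The octamer was in 26 of these 61 (42.62%), against 1.802% of 27305 gene promoters of the same length, and it was in 11 of 14 H2A, 14 of 18 H2B, 1 of 10 H3, 0 of 13 H4 and 0 of 6 H1 windows. The window listed for the H3 gene with the octamer, HIST1H3D, is the same as that of the H2A gene HIST1H2AD, and head-to-head neighbours share part of their windows, so the 61 are not separate stretches of DNA. CCAAT was in 51 of the 61 (83.61%), against 35.7% of all promoters, and TATAAA in 40 (65.57%), against 11.95%. TTTCCCGC, a form of the site bound by E2F factors, was in 1 of the 61 (1.639%), against 1.659% of all promoters. These are matches of letters on either strand, and overlapping matches were counted once per promoter.

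Genes of S phase moved the other way in sensitive cells. Of 27 G1/S and DNA replication genes, all 27 fell with GNE-7883, against 28.4% of all genes. The median log2 fold change of the 27 was -1.04, and their summed level per library was 1246 to 1276 CPM in GNE-7883 and 2501 to 2606 CPM in DMSO. UHRF1, which keeps DNA methylation through replication, fell by 1.82 on the log2 scale, and GINS2, a subunit of the replicative helicase, by 1.78. The phosphatase gene CDC25A fell by 1.69 and CDC6, which loads the helicase, by 1.53. In resistant cells 3 of the 27 fell (CDC25A by 0.26, CDC6 and GINS2 each by 0.21), against 3.97% of all genes that fell there. The difference of the responses was positive and called for all 27, against 19% of all genes, the sign opposite to that of the histone genes called.

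Of 22 histone chaperone genes, 14 fell and 4 rose in sensitive cells with GNE-7883, where 28.4% of all genes fell and 29.8% rose. TONSL, HJURP, CHAF1A and ASF1B, which handle new histones at replicating DNA or, for HJURP, at the centromere, fell by 1.37, 1.33, 1.17 and 1.14. In resistant cells 2 of the 22 fell, HJURP by 0.25 and SSRP1 by 0.19, against 3.97% of all genes that fell there. Genes of histone variants, which lie outside the clusters, were mostly lower too: of 12 tested out of 21, 8 fell and H1F0, which encodes a linker histone of non-dividing cells, rose by 0.35 ± 0.059 (adjusted p = 9.89e-05, edgeR), at 117 ± 6.61 CPM in GNE-7883 and 92.2 ± 1.62 CPM in DMSO. CENPA, the centromeric H3, fell by 1.65, H2AFZ by 1.25 and H2AFX by 1.17. In resistant cells CENPA alone was called, falling by 0.25.

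Of 17 genes that transcribe or process histone mRNA, 10 fell and 1, the cap-binding gene NCBP2, rose (0.18) in sensitive cells, and in resistant cells the 17 values ranged from -0.17 to 0.10. The 11 called of 17 in sensitive cells are close to the 58.1% of all genes called (29.8% higher and 28.4% lower). SLBP, the stem-loop binding protein, had 55.6 CPM in sensitive GNE-7883 and 90.3 CPM in sensitive DMSO, a log2 fold change of -0.70 ± 0.058 (adjusted p = 4.5e-08, edgeR). SRRT fell by 0.79, CSTF2, which acts in 3′ end cleavage, by 0.72, and ERI1, an exonuclease acting on the stem-loop, by 0.71. NPAT, the coactivator of histone genes in S phase, was not called, at 0.12 ± 0.093 (adjusted p = 0.287, edgeR), nor was POU2F1, which encodes OCT1, at 0.11 ± 0.157 (adjusted p = 0.582, edgeR). The part of these genes in the histone values was not tested.

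Sample checks bear on these values. Of 10 RNA genes without a poly(A) tail, 5 were listed at 0 in every library, and RN7SL2 held 561 counts, nearly all the counts of the 10. Whether the other genes were counted is not known, so these values do not measure how well tailless RNA was kept out. The 10 summed to 1.45 to 1.67 CPM in sensitive GNE-7883, 1.21 to 1.72 CPM in sensitive DMSO, 0.815 to 1.23 CPM in resistant GNE-7883 and 0.614 to 1.08 CPM in resistant DMSO. These ranges overlapped between treatments in both lines but not between lines in either treatment, and RN7SL2 was lower in resistant cells by 0.70 in DMSO and by 0.79 in GNE-7883 on the log2 scale. The 10 mesothelial markers summed to 7070 to 7287 CPM in sensitive GNE-7883 and 9062 to 10634 CPM in sensitive DMSO, and to 4549 to 5139 CPM in resistant GNE-7883 and 4025 to 4719 CPM in resistant DMSO. In sensitive DMSO most of this sum was KRT18 and KRT8, with means of 3939 and 2604 CPM. With GNE-7883 in sensitive cells 6 of the 10 were called higher and 4 lower, against 58.1% of all genes called. In DMSO 1 of the 10 was higher and 8 were lower in resistant than in sensitive cells, against 48.7% of all genes called. The part of these genes in the histone values was not tested either. Markers of blood, endothelial and lung epithelial cells summed to 1.53 to 1.99 CPM in sensitive GNE-7883 and 0.619 to 0.739 CPM in sensitive DMSO, with CD3E at 0 throughout. SFTPC and PECAM1 were called higher among 4 tested, against 58.1% of all genes called (29.8% higher). SFTPC averaged 0.724 CPM in sensitive GNE-7883 and at most 0.0102 CPM in the other groups. It passed the filter, with its cutoff of 0.249 CPM, only through that group, so its call is no support. PECAM1 averaged 0.518 CPM there and 0.198 to 0.218 CPM in the other groups, below the cutoff, so its call is little support. The part of these markers in the histone values was not tested. In resistant cells they summed to 0.510 to 0.655 CPM in GNE-7883 and 0.606 to 0.798 CPM in DMSO. Sensitive DMSO replicate 2 stood apart from its group, with log2 deviations of SD 0.180 against 0.0956 to 0.130 in the other libraries. Without it 20 members passed the filter, of which 16 rose and none fell with GNE-7883 in sensitive cells, against 57.8% of all genes called. The filter is looser with a library left out, so more members can pass through sensitive GNE-7883 alone. Calls of such members against that group are no support.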

How the data were processed

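RNA was extracted from cultured cells and sequenced as single-end reads of 50 bases, per the labels. The authors deposited raw read counts, in whole numbers by Ensembl gene, and RPKM values for the same genes; the count table was used for every test and the deposited RPKM for levels per length. The submitters' processing notes name GSNAP, GRCh38.p10 and limma without their role. Which tool, annotation and strand setting made the counts is not given here. No label says that replicates were separate cultures: the p-values reflect the spread among these libraries, possibly a technical one.

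Counts were scaled by TMM and fitted with edgeR 4.0.16 in R 4.3.3: filterByExpr by group kept 18035 genes, the quasi-likelihood model had a mean for each group (residual degrees of freedom 8), and two-sided p-values were adjusted by Benjamini and Hochberg's method in each of 5 comparisons. A gene was called at an adjusted p under 0.05. The standard error is the absolute log2 fold change over the square root of F. CPM are counts scaled to the TMM-adjusted library total, as edgeR computes them, and class sums add the members of a class. Alternatives were DESeq2 1.42.0 and its size factors, other filters, a replicate block, offsets for GC content and length, total-count scaling and leaving out each library. The fit was tested on simulated counts. Named members are the 6 with the highest mean CPM, per comparison up to 5 called in each direction among those with at least 1 CPM, and the highest of each class per length; others were named after their values were seen. The members, the other gene lists and the 3′ end grouping were chosen with earlier results of these data known. Coordinates and transcripts come from GENCODE release 29 and promoters from RefSeq.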

Additional observations from a re-analysis of the deposited data

Results flagged for a closer look

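The response to GNE-7883 differed between the lines, by the test of the difference itself (resistant minus sensitive, log2, edgeR), for 10 members. The values were -1.52 for HIST1H3E, -1.33 for HIST1H4H, -1.32 for HIST1H2AC, -1.32 for HIST1H2BC, -1.11 for HIST1H3H, -1.07 for HIST2H2BE, -0.96 for HIST1H2BD, -0.91 for HIST1H2AG, -0.72 for HIST1H1C and -0.61 for HIST1H2BN. The call of HIST1H2BN held in 5 of 18 alternatives and that of HIST1H3H in 12 of 18. For HIST1H2AG the resistant value itself was -0.14 and was not called.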

How the results depend on the processing

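The 18 members tested hold few counts, and for the other 53 no change could be called at this depth with the filter used. Requiring 5 CPM left 4 members: all 4 rose in sensitive cells and all 4 were lower in resistant than in sensitive cells in GNE-7883 and in the difference of responses (4 each), none was higher in that comparison (0), and in DMSO 2 were higher and 1 lower. HIST1H2BD, among the 4, had 9.29 to 9.88 CPM in sensitive GNE-7883 and at most 3.81 CPM in any other library. HIST2H2BE was over 5 CPM in sensitive GNE-7883 and otherwise only in resistant GNE-7883 replicate 2 (5.30 CPM). Both thus passed through the group where they are high, and their calls against that group are no support here. Under this filter 69.7% of all genes were called in sensitive cells and 72.3% between lines in GNE-7883. The shares were 49.2% in the difference and 59.5% between lines in DMSO. In DMSO the members higher in resistant cells numbered 3 with no filter and 2 with DESeq2, where 25.2% and 37.2% of all genes were called. With the replicate block and GC and length offsets together, 4 members rose in resistant cells. Calls were more common there in general, at 17.2% of all genes against 9.22% in the main fit.

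Leaving out each library in turn, when 20 members pass the filter, gave 16 to 17 members higher and 0 to 1 lower with GNE-7883 in sensitive cells. It gave 2 to 5 higher in resistant DMSO, 11 to 13 lower in resistant GNE-7883 and 8 to 11 in the difference. The share of all genes called ran from 51.5% to 57.8% in sensitive cells and from 41.9% to 49.3% between lines in DMSO. It ran from 56.4% to 66.4% between lines in GNE-7883 and from 30.4% to 38.7% in the difference. Members that passed only through sensitive GNE-7883 are among these counts. The member lower in sensitive cells without sensitive DMSO replicate 1 or sensitive GNE-7883 replicate 2 was HIST1H2BJ.

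Without its top gene a class sum moved to these log2 ratios: with GNE-7883 in sensitive cells -0.98 for H1 (reversed), 0.53 for H2A, 1.14 for H3 and 1.49 for H4; in resistant cells 0.64 for H1, 0.0464 for H2A and 0.11 for H4; between lines in DMSO -0.30 for H2A, -0.0523 for H2B and -0.13 for H3 (all reversed); and between lines in GNE-7883 1.51 for H1 (reversed), -0.78 for H2A, -0.99 for H2B and -0.995 for H4. With total counts, resistant over sensitive gave 0.12 for H2A and 0.14 for H2B in DMSO and -0.96 for H2A in GNE-7883. Leaving out the top gene changes the set of genes summed, and total counts change the scaling only.

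The replicate numbers were not taken as pairs, since in no comparison was every same-numbered correlation of deviations over 0.1. These were -0.12 to 0.10 for the sensitive comparison, 0.02 to 0.33 between lines in DMSO, where 3 of 3 correlated best with their own number (a hint from the data, not the design), and -0.02 to 0.13 between lines in GNE-7883, with 2 of 3. With the replicate block 14 members were higher in sensitive cells, 2 in resistant cells, 4 higher and 2 lower between lines in DMSO, 1 higher and 10 lower in GNE-7883, and 9 lower in the difference. The shares of all genes called were 57.1%, 7.61%, 47.7%, 61.3% and 34.4% in the same order.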
